A study of Mus musculus with 12 samples.

Results

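Cortex of newborn mice in which Reck was removed from vascular cells (vKO) was compared with wild-type (WT) cortex, gene by gene, with each gene read against genes of similar transcript length. Of 23983 entries in the deposited cortex table, 13594 were marked as tested by the authors, 13548 of these reached 1 FPKM (fragments scaled by transcript length and by the mapped total) in at least 1 group, and 13395 had a transcript length in the annotation. These 13395 genes are called judged genes below. Their choice used the marks, the levels and the lengths, and not the fold changes or p-values.

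The study holds 12 RNA-seq libraries of postnatal day 0 brain, of which 6 are described here: 3 of WT cortex and 3 of vKO cortex. WT animals carry no further genotype in the labels, and vKO animals are written there as Reck flex2/Δex1 with Tie2Cre, in a mixed strain for both groups. Tie2-Cre is known to act in endothelial cells and also in blood lineages, so the recombined cells are not limited to vessels. The Δex1 allele is written as already deleted, without need of Cre. The other 6 libraries, 3 WT and 3 vKO subcortex of the same age and genotypes, are used for comparison only. Libraries were made from total RNA with a stranded kit. The labels do not say whether the libraries of a group come from separate animals, so the authors' p-values may measure technical spread alone.

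The table gives 1 FPKM value per gene and group, computed by the authors from all libraries of that group. No value per library, no SD and no depth could be taken from it. The spread between libraries enters only through the authors' q-values (p-values adjusted for multiple tests). A gene is called here where that q-value was under 0.05 in the authors' deposited table, and "rose" and "fell" are used for called genes alone.

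Reck is a membrane-anchored protein that works with the adhesion receptor Gpr124 (Adgra2) on endothelial cells to receive the ligands Wnt7a and Wnt7b from neural cells. The signal runs through Frizzled receptors, Lrp5 or Lrp6 and beta-catenin. In the developing brain it is known to drive the growth of vessels into neural tissue and to switch on the blood-brain barrier, in which endothelial cells are sealed by tight junctions and carry nutrient and efflux transporters, in place of the fenestrae and vesicles of vessels elsewhere in the body.

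Reck itself (chromosome 4, 43875530 to 43944806, GRCm38) was listed at 2.91 FPKM for WT and 3.23 FPKM for vKO, and its q-value in the authors' deposited table was 0.639. A deletion of some exons in some of the cells cannot be checked with this value, which sums all exons over all cells. The co-receptor Gpr124 fell from 3.84 to 2.35 FPKM, the receptor Fzd6 from 3.44 to 2.34 FPKM and the co-receptor Lrp6 from 17.2 to 11.1 FPKM. The ligands were not called: Wnt7a had 9.69 FPKM for WT and 8.34 for vKO, and Wnt7b at 21.2 and 26.3. The other members were not called either, with Fzd4 at 1.91 and 1.89 FPKM, Lrp5 at 3.93 and 3.02, the Norrin gene Ndp at 2.505 and 2.608, and Tspan12 at 7.08 and 9.48. Of the 10 genes of the complex, 3 were called lower and 0 higher in the authors' deposited table. Over all judged genes 11.3% were called lower and 8.17% higher. Set against genes of similar transcript length, in the measure defined below, the log2 ratio was -0.36 for Gpr124, -0.33 for Fzd6 and -0.21 for Lrp6. Before that adjustment these ratios were -0.53, -0.41 and -0.58. In this measure 4 of the 10 genes lay above and 6 below genes of their length. In bulk tissue, fewer cells of a type and less RNA per cell cannot be told apart, here and in all that follows.

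The tissue label was read against genes that define cortex. In WT, Emx1 stood at 13.3 FPKM, Neurod6 at 98.3, Tbr1 at 29.0 and Bcl11b at 40.7. In WT subcortex Neurod6 stood at 6.61 FPKM and Bcl11b at 6.24, far under the cortex values. In vKO cortex Emx1 was at 15.3 FPKM, Neurod6 at 168, Tbr1 at 22.2 and Bcl11b at 26.5, so all 4 were well expressed in both cortex groups.

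The ratio of vKO to WT cortex fell with transcript length. The log2 ratio used here is log2((vKO FPKM + 1)/(WT FPKM + 1)), in which the 1 added to both values shrinks the change of low genes. Among the tenth of genes with the shortest transcripts (median 861.5 bases) its median was 0.36 and 79.9% of genes had the higher value in vKO. Among the tenth with the longest transcripts the median was -0.35. In subcortex the medians of the 10 length classes lay between -0.01 and 0.00 (log2). Across the 13395 judged genes Spearman's rho between length and ratio was -0.553 in cortex, and 0.0206 across 13543 genes in subcortex. The relation was steeper among well expressed genes, with rho of -0.339, -0.614 and -0.683 in the lowest, middle and highest of 3 equal classes of mean FPKM. All these genes share the same libraries, so these are descriptions with no p-value, and the part of library preparation or RNA quality in them was not tested.

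**Figure D1:**
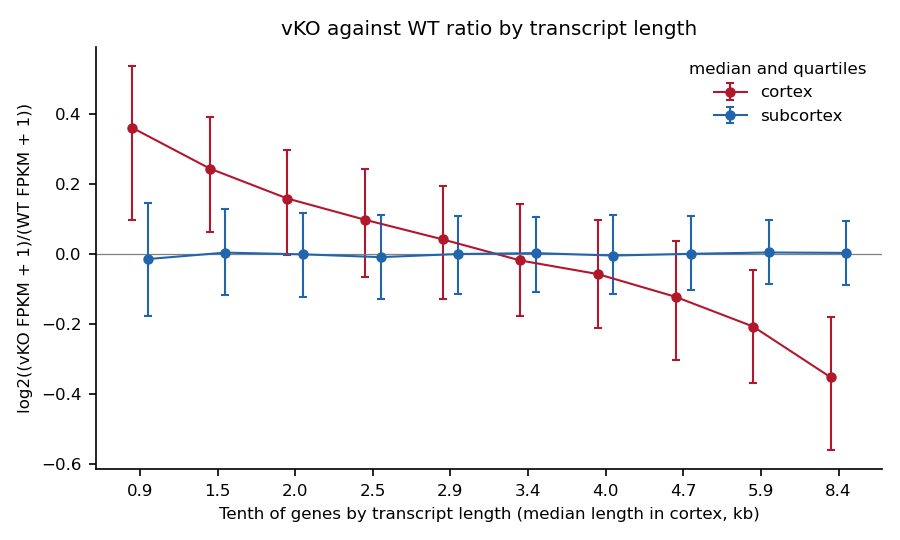
Median log2 ratio of vKO over WT FPKM (1 added to both values, vertical axis) in 10 equal classes of transcript length (horizontal axis, kilobases), with bars from the lower to the upper quartile of the genes. Cortex medians run from 0.36 in the shortest class to -0.35 in the longest, and subcortex medians stay near 0.

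Each gene's ratio was therefore set against its 200 nearest genes in transcript length, 100 shorter and 100 longer. The length-adjusted ratio is the gene's log2 ratio minus the median of those neighbours, and its rank is its place among the 201 genes. In this measure 295 genes (2.2% of judged genes) lay at least 1.5-fold above their neighbours (a difference of 0.585 on the log2 scale) and 574 (4.29%) at least 1.5-fold below. The authors' deposited table called 1094 judged genes higher (8.17%) and 1516 lower (11.3%). Genes called higher had a median transcript of 1559 bases and genes called lower one of 6192 bases. Of those called higher, 99.2% were above their neighbours but 218 were 1.5-fold or more above. Of those called lower, 96.6% were below, 278 of them by 1.5-fold or more, and 51 stood above genes of their own length. In the tenth of judged genes with the longest transcripts 625 of 1340 were called lower. In the tenth with the shortest 380 of 1340 were called higher. Genes that reached 1 FPKM in 1 group only, 572 in all, could enter solely through the group in which they were higher, and 73 of the 295 and 149 of the 574 are of this kind. The genes far below included many RNAs that code for no protein (35.2%) and 136 predicted gene models.

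The length adjustment left other trends in place. Across the judged cortex genes the adjusted ratio had a rho of -0.212 with GC content and of 0.204 with mean FPKM. Shares with neighbours matched in those measures as well are given below for 8 lists.

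Genes of red blood cells, haem breakdown, phagocytes and metal binding were among those farthest above their length neighbours. The 15 genes farthest above and the 15 farthest below were taken among genes of at least 2 FPKM in a group. Left out by name were predicted models, microRNA, snoRNA and other small RNA symbols, histone genes and a list of sex-linked transcripts (Xist, Tsix and Y-linked genes). The names do not catch every such gene: AF357399, annotated as a snoRNA, stayed in, and other genes on the X chromosome were kept. Of those above, the alpha globin gene Hba-a2 went from 14.2 to 613 FPKM, the beta globin Hbb-bs from 0.00634 to 36.4, and the embryonic globins Hbb-y and Hba-x from 0.0607 to 12.4 and from 0.167 to 6.62. None of these 4 was called, with q-values from 0.286 to 0.643 in the authors' deposited table, so these differences did not pass that test despite their size. Alas2, the enzyme that starts haem synthesis in red cells, rose from 5.70 to 34.6 FPKM. Hmox1 (chromosome 8, 75093621 to 75100589), haem oxygenase 1, which breaks haem down, rose from 2.04 to 59.7 FPKM and ranked first of 201 with an adjusted ratio of 4.10. Lyz2, the lysozyme of macrophages and neutrophils, rose from 3.14 to 47.9 FPKM, an adjusted ratio of 3.25. S100a9, a calcium-binding protein of neutrophils and monocytes, rose from 0.908 to 17.2 FPKM. Its partner S100a8, at 0.941 and 18.4 FPKM, was not called. Hbb-bs, Hbb-y, Hba-x, S100a8 and S100a9 reached 1 FPKM in vKO alone and so had to be higher there.

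The remaining genes farthest above came from several roles. Kcne3, Clec4n, Mylpf and BC100530 likewise reached 1 FPKM in vKO alone and so had to be higher there. Kcne3, an accessory subunit of potassium channels, was listed at 0 in WT and 3.99 FPKM in vKO and was called. It is also used as a marker of sprouting endothelial tip cells. Of 19 judged genes of endothelial sprouting 3 were called higher and 2 lower, and 7 lay above and 12 below their neighbours. Clec4n, a myeloid lectin receptor, rose from 0.196 to 4.35 FPKM. The metallothionein Mt2 rose from 11.8 to 63.4 FPKM. Mylpf, a myosin light chain of skeletal muscle, stood at 0.231 and 5.22 FPKM without a call. The muscle actin Acta1, named after its values were seen, rose from 1.85 to 6.11 FPKM. Gapdh was called, from 2.69 to 29.3 FPKM, but 71 other annotated genes have transcripts that match it over at least 50% of its length at 95% identity. In subcortex Gapdh also ran the opposite way, from 19.6 to 4.18, so its value is uncertain. BC100530 (0.378 and 6.25 FPKM, not called) has 2 such copies, and Hba-a2 and Lyz2 have 1 each, so their assignment is uncertain too.

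The 15 genes farthest below included 5 that were called. Slc38a5 (chromosome X, 8271133 to 8280179), a glutamine transporter of brain endothelium, fell from 6.79 to 0.695 FPKM and ranked last of 201, with an adjusted ratio of -2.38. Tcf7l2, a transcription factor of beta-catenin signalling and of thalamic neurons, fell from 4.71 to 1.07 FPKM (-1.44). Ackr1, a chemokine-binding receptor of venules and red cells, fell from 14.8 to 7.08 FPKM (-1.30). Pglyrp1, a peptidoglycan-binding protein, fell from 5.12 to 1.70 (-1.60), and Mospd3 from 5.14 to 2.03 (-1.25). The other 10 were not called. They include the snoRNA entry AF357399 (32.0 FPKM in WT, listed at 0 in vKO, and the reverse in subcortex with 0 and 11.8), 3 antisense RNAs (Grip1os2, Nrg3os and Ppp2r2cos), and genes with near-identical copies such as Rpl26, Mageb16, Rbm14-rbm4 and Pcdha4-g. The sources used here do not give whether counting used the strand, so antisense RNAs cannot be told apart from their partner genes. Ghrl, the ghrelin gene, at 4.38 and 1.93 FPKM, and Iqcj, at 3.50 and 1.10, complete the list. Slc38a5, AF357399, Mageb16, Grip1os2 and Ppp2r2cos reached 1 FPKM in WT alone and so had to be lower in vKO.

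**Figure D2:**
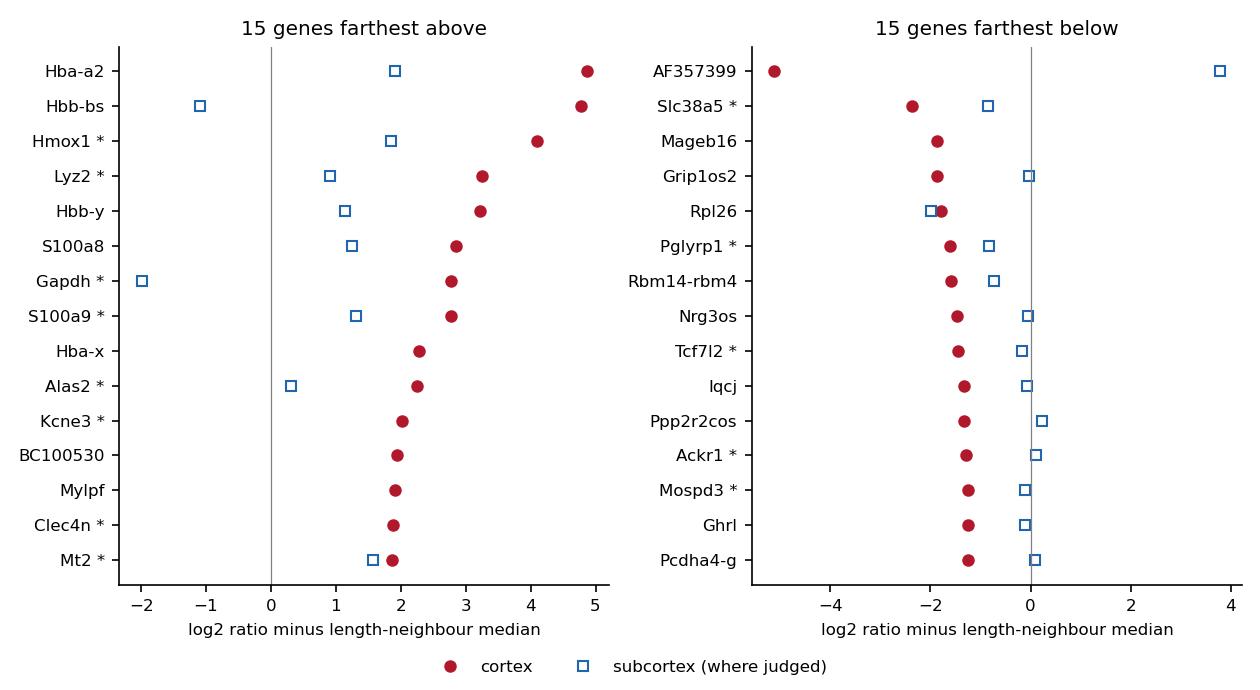
Length-adjusted log2 ratios (horizontal axis) of the 15 genes farthest above and the 15 farthest below their length neighbours in cortex, with the subcortex value of the same gene where it was judged. An asterisk marks genes called in the authors' cortex table, and Gapdh, Hbb-bs and AF357399 lie far on opposite sides of 0 in the 2 tissues.

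Most nutrient and organic anion transporters of the blood-brain barrier lay below their length neighbours. Most genes of a list of fenestrae, caveolae and peripheral endothelium lay above (12 of 15). Of 18 judged nutrient transporters 7 were called lower and 0 higher in the authors' deposited table, and 16 lay below genes of their length. Of the 18, Slc38a5 was judged through WT alone. Beside Slc38a5, the lysolipid and omega-3 transporter Mfsd2a fell from 9.96 to 5.65 FPKM (-0.86, last of 201), the glutamine transporter Slc38a3 from 14.1 to 7.73 (-0.83) and the arginine transporter Slc7a1 from 14.1 to 6.37 (-0.71). The transferrin receptor gene Tfrc fell from 22.5 to 14.9 FPKM. The glucose transporter Slc2a1, at 16.9 FPKM in WT and 13.6 in vKO, was not called. All 8 judged organic anion and thyroid hormone transporters lay below their neighbours and 6 were called lower. Of the 8 genes 3, Slc22a8 among them, reached 1 FPKM in WT alone and so had to be lower in vKO. Slc22a8 fell from 3.55 to 0.955 FPKM (-1.23) and Slco1c1, which carries thyroxine, from 14.2 to 6.70 (-0.98), both last of 201. Of 7 efflux transporters 1 was called in each direction. Abcg2, the breast cancer resistance protein, rose from 8.97 to 12.6 FPKM (0.62), the lipid transporter Abca2 fell from 14.8 to 8.60 (-0.44), and P-glycoprotein (Abcb1a), at 2.58 and 1.95 FPKM, was not called.

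The tight junction list did not move as a whole. Cldn5, the main claudin of brain endothelium, fell from 46.8 to 24.6 FPKM (-1.16), the endothelial adhesion molecule Esam from 9.25 to 6.13 (-0.71) and the tricellular junction receptor Lsr from 5.93 to 3.99 (-0.60). The other 11 of 14 judged members were not called, and 6 of the 14 lay above their neighbours, among them Cldn12 at 5.41 and 6.88 FPKM. The median adjusted ratio of the list was -0.02, beside -0.00 over all judged genes.

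Of 15 genes of fenestrae, caveolae and peripheral endothelium 8 were called higher and 1 lower in the authors' deposited table, and 7 lay at least 1.5-fold above their neighbours. Of these, Cd36 and Esm1 reached 1 FPKM in vKO alone and so had to be higher there. Plvap (chromosome 8, 71497765 to 71511752), which builds the diaphragm of a fenestra, rose from 1.196 to 4.202 FPKM (1.08), the fatty acid receptor Cd36 from 0.368 to 1.997 (1.14), endomucin (Emcn) from 3.30 to 8.03 (0.99) and Esm1 from 0.303 to 1.81 (0.95). The surface sialomucin Cd34 rose from 9.07 to 16.3 FPKM (0.68) and the caveolar protein Sdpr from 2.43 to 4.39 (0.62). Caveolin-1 (Cav1), at 16.2 and 21.2 FPKM, was not called. Vwf, the clotting factor stored in endothelial granules, ran the other way, from 4.08 to 1.65 FPKM (-0.57). Cd36 is also made by macrophages, many of whose genes rose in the same comparison, and their part in its value was not tested.

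Genes made by all endothelial cells were level on balance, with 5 of 26 called higher, 5 lower, 12 above and 14 below their neighbours. The share above, 46.15%, became 57.69% with neighbours matched in mean FPKM as well. The cadherin Cdh5 had 6.89 and 6.80 FPKM and Pecam1 at 6.49 and 8.47, neither called. Clec14a rose from 2.65 to 4.22 FPKM and Egfl7 from 15.1 to 22.4. Emcn, named above with the fenestral genes, is on this list too and lay farthest from its neighbours. The VEGF receptors fell: Kdr, the main signalling receptor, from 10.98 to 5.30 FPKM (-0.70) and Flt1 from 3.42 to 1.96 (-0.33). Their ligand Vegfa rose from 20.7 to 33.4 FPKM (0.68, second of 201). Of the 16 VEGF and angiopoietin genes 1 was called higher and 5 lower. Among 14 genes that beta-catenin drives or that feed back on it, 2 were called higher and 4 lower. Notum, a secreted enzyme that inactivates Wnt proteins, fell from 1.30 to 0.425 FPKM (-0.81) and Lef1 from 2.57 to 1.36 (-0.58), while Fgfbp1 rose from 2.89 to 7.95 (1.08, first of 201) and Cyp1b1 from 2.13 to 3.21 (0.58). Notum reached 1 FPKM in WT alone and so had to be lower in vKO. Axin2, a widely used feedback target, was among those not called, with an adjusted ratio of -0.16.

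Calls among genes of the cells and matrix around the vessels differed from list to list. Of all judged genes 8.17% were called higher and 11.3% lower. Of 16 pericyte genes 1 was called higher (the channel gene Kcnj8, from 3.42 to 6.01 FPKM) and 3 lower, among them the receptor Notch3 (4.415 to 2.198 FPKM). The pericyte receptor Pdgfrb stood at 5.96 and 5.29 FPKM and Rgs5 at 27.6 and 30.7, with no call. Of 8 smooth muscle genes Acta2 (1.58 to 2.70 FPKM) was 1 of 2 called higher and none was called lower in the authors' deposited table. Among 26 collagen and basement membrane genes 8 were called lower and 0 higher, but 14 lay above genes of their own length, a share of 53.85% that became 42.31% with neighbours matched in mean FPKM as well. Fibronectin (Fn1), at 20.0 FPKM in WT and 10.9 in vKO, was the member farthest below its neighbours (-0.51), and the collagen IV gene Col4a1, at 33.3 and 33.2 FPKM, stood 0.23 above. Of 20 genes of meningeal fibroblasts 16 were above their neighbours 1 was called lower (Slc22a6, 3.27 to 1.74 FPKM, also on the organic anion list) and 5 were called higher, led by the matrix protein Mgp (6.33 to 17.4 FPKM) with osteoglycin (Ogn), lumican (Lum) and decorin (Dcn), which went from 7.02 to 11.5, from 2.40 to 4.12 and from 15.4 to 22.7 FPKM. Of 21 genes of the integrin beta8 and TGF-beta pathway, Id2 (105 to 161 FPKM) was the 1 called.

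**Figure D3:**
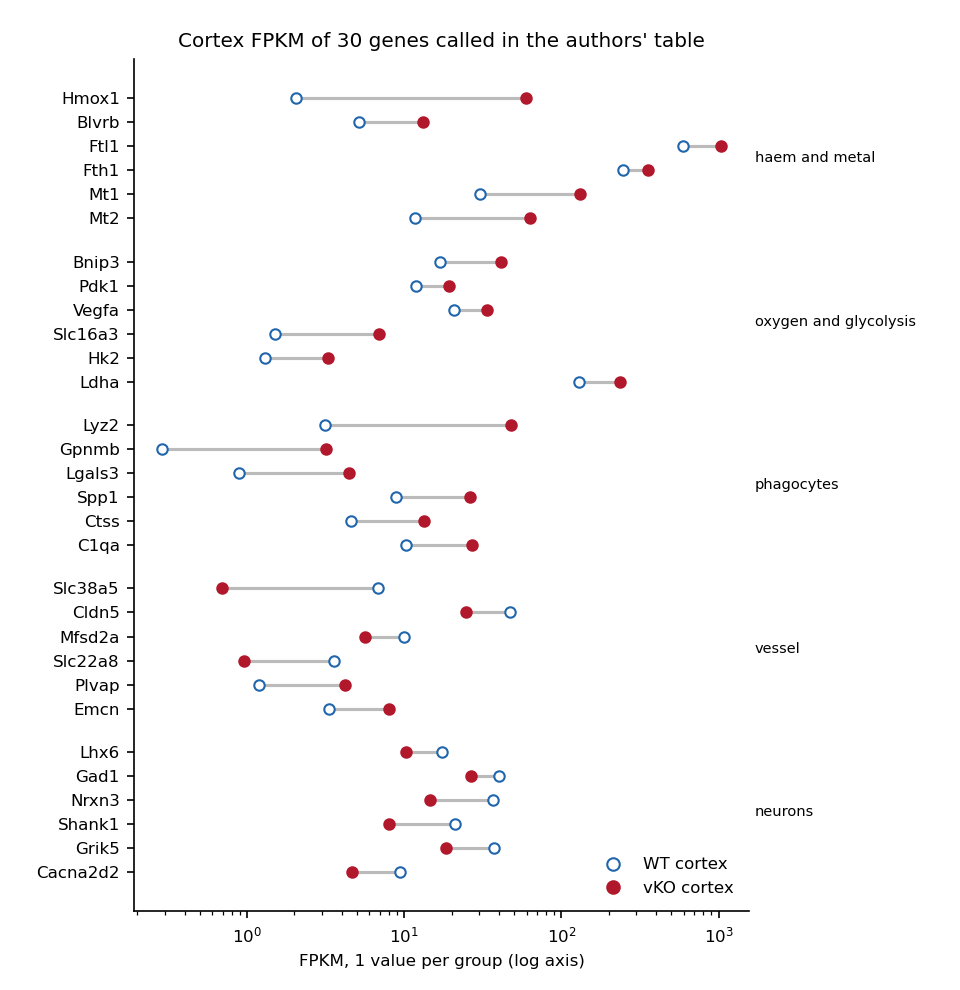
FPKM of 30 genes in WT cortex (open) and vKO cortex (filled), 1 value per group on a log axis, in 5 groups of function. All 30 were called in the authors' cortex table and were picked after their values were seen. The haem, metal, oxygen, glycolysis and phagocyte genes lie higher in vKO, the neuronal genes lie lower, and the vessel genes go both ways.

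Several genes that handle haem and iron rose. The summed FPKM of globin entries made up 0.0828% of all FPKM in WT cortex and 1.19% in vKO cortex. Of 11 judged erythroid genes, 3 of them judged through 1 group only, 4 were called higher and 1 (Tfrc) lower. Beside Alas2 these were Ube2l6 (2.41 to 9.54 FPKM), the mitochondrial iron importer Slc25a37 (1.41 to 3.10) and Fech, which inserts iron into haem (9.83 to 15.04). Of 21 haem and iron genes 7 were called higher and 4 lower in the authors' deposited table. After Hmox1 came Slc11a1, an iron transporter of phagosomes (0.346 to 2.39 FPKM, 1.22), biliverdin reductase B (Blvrb, 5.16 to 13.2, 0.87) and Cd163, the macrophage receptor for haemoglobin (0.778 to 1.37, 0.53). Slc11a1 and Cd163 reached 1 FPKM in vKO alone and so had to be higher there. Both ferritin chains rose, Ftl1 from 593 to 1034 FPKM and Fth1 from 247 to 355. The iron-responsive regulator Ireb2 fell from 38.4 to 24.3 FPKM and, with Tfrc, lay under its length neighbours. More blood in the samples and more response to blood cannot be told apart from these values.

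Phagocyte genes rose across most of their list. Of 22 judged genes of activated phagocytes 15 were called higher and 0 lower, 21 were above their neighbours and 11 were at least 1.5-fold above. Gpnmb, a glycoprotein of lipid-laden macrophages, rose from 0.289 to 3.19 FPKM (1.72), the galectin Lgals3 from 0.885 to 4.43 (1.27), osteopontin (Spp1) from 8.88 to 26.1 (1.25) and the lysosomal protease Ctsd from 71.6 to 139 (0.80). Cd68 rose from 3.34 to 7.20 FPKM and the scavenger receptor Msr1 from 0.524 to 1.45. Igf1, at 3.32 and 4.15 FPKM, and the protease Ctsb, at 31.8 and 43.1, were not called. Of these 22 genes 4 entered through 1 group only.

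Many microglial genes rose too, while several that mark resting microglia were not called. Of 22 judged, 13 were called higher and 1 lower in the authors' deposited table and 10 lay at least 1.5-fold above their neighbours, 3 of the 22 having entered through 1 group only. The complement genes C1qa, C1qb and C1qc rose from 10.3 to 27.0, from 7.55 to 20.8 and from 11.9 to 27.5 FPKM. The signalling adaptor Tyrobp rose from 8.59 to 27.5 FPKM (1.11), the protease Ctss from 4.55 to 13.3 (1.10), Trem2 from 1.85 to 5.29 and the fractalkine receptor Cx3cr1 from 2.73 to 4.82. The purinergic receptor P2ry12 had 2.41 and 2.06 FPKM, Tmem119 at 1.25 and 1.52 and Gpr34 at 3.29 and 2.81, none called. Sall1, a transcription factor that keeps microglial identity but is also made by neural progenitors, fell from 5.06 to 3.28 FPKM.

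Genes of macrophages at the borders of the brain lay above their neighbours in 11 of 12 cases, 4 of the 12 judged through 1 group only, and 6 were called higher and 1 lower (Maf, 9.55 to 5.79 FPKM). Ms4a6c rose from 0.847 to 4.37 FPKM (1.36), and its relatives Ms4a6d and Ms4a6b, added after their values were seen, from 0.609 to 4.46 and from 0.714 to 2.96. The chemokine Pf4 rose from 7.04 to 18.1 FPKM and the lipid carrier Apoe from 186 to 297. The receptors Mrc1, at 4.87 and 5.39, and Lyve1, at 2.17 and 2.40, were not called. Of 18 neutrophil and mast cell genes 8 were judged, 6 of them through 1 group only, and 1 was called higher (S100a9) and 1 lower (Mmp9, 2.36 to 0.984 FPKM). Of 17 lymphocyte and platelet genes 2 were judged, Pf4 and Gp1bb. Among 14 judged interferon and antigen presentation genes, 4 of them judged through 1 group only (Psmb8 and Isg15 through vKO), 9 were called higher and 0 lower, including the immunoproteasome subunit Psmb8 (0.340 to 2.01 FPKM), Ifitm3 (7.24 to 15.3), Isg15 (0.941 to 2.73), H2-K1 (2.56 to 4.86) and B2m (19.8 to 36.8). The regulator Irf7, at 1.02 and 0.996 FPKM, was not called.

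Genes switched on by low oxygen and genes of glycolysis rose in part. Low oxygen stabilises the transcription factor HIF, which binds short sites with the core letters ACGTG or GCGTG and turns on VEGF, glycolytic enzymes and mitochondrial regulators. Of 39 judged hypoxia genes 9 were called higher and 3 lower in the authors' deposited table, and 28 were above genes of their length. Bnip3, which marks mitochondria for removal, rose from 16.8 to 41.5 FPKM (1.06, first of 201). Pdk1, which keeps pyruvate out of mitochondria, rose from 11.9 to 19.2 FPKM (0.82), and Ddit4, an inhibitor of mTORC1, from 25.4 to 49.6 (0.75). Smaller rises were Higd1a from 16.1 to 24.9 FPKM and Fam162a from 26.0 to 47.5. The oxygen-regulated subunit Hif1a, at 34.1 and 38.4 FPKM, and the prolyl hydroxylase Egln3, at 3.87 and 4.54, were not called. Epas1, the HIF subunit rich in endothelium, fell from 4.96 to 2.58 FPKM (-0.54), and so did Hif3a (1.30 to 0.593) and Angptl4 (4.99 to 3.04). Hif3a reached 1 FPKM in WT alone and so had to be lower in vKO.

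Of 29 glycolysis and lactate genes 11 were called higher and 0 lower, and 8 lay at least 1.5-fold above their neighbours. Slc16a3, which exports lactate, rose from 1.503 to 6.901 FPKM (1.72, first of 201), hexokinase 2 (Hk2) from 1.30 to 3.28 (1.09, first of 201), Gpi1 from 47.4 to 94.1 (0.94) and Pgk1 from 89.7 to 183 (0.85). Ldha, which makes lactate, rose from 130 to 236 FPKM (0.68) and Aldoa from 141 to 258 (0.64). The platelet-type phosphofructokinase Pfkp, at 48.9 and 38.2 FPKM, lay below its neighbours without a call. Single steps, and not every enzyme of the path, stood apart from genes of their length.

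Promoters of 3 of these genes are printed because they carry the letters of the HIF core close to the start. They are RefSeq sequences of GRCm38.p6, 250 bases before to 50 after the start, 5′ to 3′ on the gene's strand, with each ACGTG or GCGTG on either strand in capitals. The letters CACGTG hold the core on both strands and count as 2 matches. Bnip3 (chr7:138909457-138909756, minus strand) has 5 matches, Slc16a3 (chr11:120948817-120949116, plus strand) has 2 and Ldha (chr7:46845554-46845853, plus strand) has 7.
Bnip3: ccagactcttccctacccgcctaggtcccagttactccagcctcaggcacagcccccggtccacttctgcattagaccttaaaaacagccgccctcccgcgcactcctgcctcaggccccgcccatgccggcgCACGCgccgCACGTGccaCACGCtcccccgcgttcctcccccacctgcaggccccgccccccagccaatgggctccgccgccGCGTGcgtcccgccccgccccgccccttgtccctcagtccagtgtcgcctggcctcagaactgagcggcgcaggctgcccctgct
Slc16a3: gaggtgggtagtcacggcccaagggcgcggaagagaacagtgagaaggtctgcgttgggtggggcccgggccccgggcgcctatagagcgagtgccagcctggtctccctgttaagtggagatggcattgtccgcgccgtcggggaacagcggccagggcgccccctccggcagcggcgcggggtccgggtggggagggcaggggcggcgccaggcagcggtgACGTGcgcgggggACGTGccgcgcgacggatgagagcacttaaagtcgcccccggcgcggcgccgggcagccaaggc
Ldha: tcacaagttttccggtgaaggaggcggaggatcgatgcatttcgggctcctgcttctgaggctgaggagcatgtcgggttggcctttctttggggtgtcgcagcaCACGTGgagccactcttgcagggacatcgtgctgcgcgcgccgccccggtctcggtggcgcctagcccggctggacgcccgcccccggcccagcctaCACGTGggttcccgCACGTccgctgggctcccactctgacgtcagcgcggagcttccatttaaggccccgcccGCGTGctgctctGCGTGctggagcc
The share with a match depended on how many matches were asked for. Of 11 members of both lists at least 1.5-fold above their neighbours, 8 (72.7%) had at least 1 match in this window, beside 38 of 49 (77.6%) other members with a promoter in the table. Over the 10555 judged genes with a promoter the share was 63.5%, and over all 27025 promoters it was 43.8%. With 2 or more matches the shares were 72.7% of the 11, 53.1% of the other members, 34.5% of judged genes and 20.8% of all promoters. Vegfa, Gpi1 and Aldoa had none of these letters in the window.

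Metal-binding and antioxidant genes rose in many cases. Of 26 judged genes of oxidative stress and metallothionein, 12 were called higher and 0 lower in the authors' deposited table, and 25 lay above their length neighbours. Metallothioneins are small proteins that bind zinc and copper. Mt1 rose from 30.5 to 132 FPKM (1.72, first of 201), Mt2 from 11.8 to 63.4 (1.86) and the brain form Mt3 from 65.5 to 104 (0.20). The zinc exporter Slc30a1, another gene induced by zinc, stood at 7.71 and 6.91 FPKM and was not called. Among targets of the antioxidant factor NRF2, the glutathione transferase Gsta4 rose from 5.20 to 13.1 FPKM (0.84), the peroxiredoxin Prdx1 from 58.1 to 99.7 (0.66), Nqo1 from 1.96 to 3.71 (0.47) and Srxn1 from 5.36 to 8.18 (0.46). Gclm, which limits glutathione synthesis, at 11.6 and 13.7 FPKM, and Nfe2l2, the gene of NRF2 itself, at 4.39 and 4.74, were not called.

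The promoters of Mt1 and Mt2 are shown because metallothionein genes are known to be induced through short metal response elements. The search for the element's core, TGCACNC or TGCGCNC on either strand, was added after the values were seen. Mt1 (chr8:94178839-94179138, plus strand) holds 3 matches and Mt2 (chr8:94172368-94172667, plus strand) holds 4, in capitals below, read from the RefSeq table of GRCm38.p6.
Mt1: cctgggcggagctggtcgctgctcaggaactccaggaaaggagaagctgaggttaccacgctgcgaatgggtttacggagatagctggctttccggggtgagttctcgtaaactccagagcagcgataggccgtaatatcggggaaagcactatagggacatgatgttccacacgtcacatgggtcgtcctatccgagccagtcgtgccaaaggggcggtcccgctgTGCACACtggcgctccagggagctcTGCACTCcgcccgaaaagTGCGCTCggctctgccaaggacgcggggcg
Mt2: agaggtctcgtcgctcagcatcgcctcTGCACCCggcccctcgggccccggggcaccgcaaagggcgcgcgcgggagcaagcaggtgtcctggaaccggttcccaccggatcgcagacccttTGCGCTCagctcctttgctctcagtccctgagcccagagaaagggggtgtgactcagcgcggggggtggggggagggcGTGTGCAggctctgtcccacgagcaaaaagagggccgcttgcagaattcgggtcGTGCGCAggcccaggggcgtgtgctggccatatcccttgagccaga
At least 1 such match occurs in 25.6% of all 27025 promoters, at least 3 in 2.0% and at least 4 in 0.503%. These are matches of letters, not measured binding.

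Stress pathways differed in how many of their genes moved. In the integrated stress response 5 of 25 genes were called higher and 1 lower. Atf3 rose from 0.206 to 1.86 FPKM (1.08), Cebpb from 1.05 to 3.25 (0.85), the phosphatase subunit Ppp1r15a from 3.86 to 6.85 (0.64) and Psat1, of serine synthesis, from 27.7 to 40.6 (0.45). Atf3 reached 1 FPKM in vKO alone and so had to be higher there. Atf4, the factor at the centre of the pathway, was at 65.9 and 75.4 FPKM with no call. Of 20 unfolded protein response genes 1 was called in each direction (Sdf2l1, 5.12 to 8.89 FPKM, and Hyou1, 22.2 to 16.3), and the chaperone Hspa5 stood at 105 and 103. Among 20 heat shock genes 5 were called higher and 17 lay above their neighbours. The inducible Hspa1b rose from 1.34 to 6.49 FPKM (1.63) and Hspa1a from 0.537 to 1.33, but these are near-identical copies of each other, so their split is uncertain. Hspa1a reached 1 FPKM in vKO alone and so had to be higher there. Hsp90ab1 rose from 429 to 595 FPKM, and the constitutive Hspa8, at 986 and 1187, was not called.

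Most targets of p53 and of glucocorticoids were not called, as was true of all judged genes (8.17% called higher and 11.3% lower). Of 18 p53 targets Btg2 (4.56 to 8.21 FPKM) and Ccng1 (14.7 to 23.2) were among 3 called higher, Zmat3 (5.97 to 2.53) was called lower, and the classical targets Cdkn1a, at 4.15 and 3.70, and Mdm2, at 17.1 and 16.0, were not called. Of 16 glucocorticoid-responsive genes 1 was called lower and 3 were called higher, Mt2 and Ddit4 (both also on other lists) and Sult1a1 (4.34 to 7.07 FPKM), while Fkbp5, at 13.7 and 14.9, and Tsc22d3, at 21.9 and 27.5, were not called. Of 22 wound and YAP genes 10 were called higher and 2 lower. Cyr61 rose from 2.56 to 6.29 FPKM (0.87), the galectin Lgals1 from 17.2 to 41.4 (0.79), vimentin (Vim) from 99.9 to 171 (0.65) and Ctgf from 4.98 to 8.41 (0.56). The astrocyte filament gene Gfap, at 8.62 and 10.8 FPKM, was not called, and Tnc fell from 52.5 to 32.2.

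Immediate early genes went both ways. Of 20 genes 8 were called higher in the authors' deposited table and 2 lower. Fos rose from 0.989 to 3.13 FPKM (0.89), Ier2 from 3.01 to 6.70 (0.73), Ier3 from 2.73 to 6.25 and Junb from 3.77 to 6.69. Fos reached 1 FPKM in vKO alone and so had to be higher there. The 2 that fell were Npas4, from 1.08 to 0.479 FPKM (-0.47), and Egr3, from 2.60 to 1.49 (-0.49). Npas4 reached 1 FPKM in WT alone and so had to be lower in vKO. Arc, at 1.59 and 1.33 FPKM, was not called. Handling time is not stated in these sources, and its part in these genes was not tested.

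Several further called genes were named after their values were seen. H19, an imprinted growth-linked RNA, rose from 30.1 to 90.7 FPKM (1.44, first of 201), with 79.0 and 75.5 in subcortex. The arrestin-family genes Txnip and Arrdc3, which lower glucose uptake and receptor signalling, rose from 21.5 to 50.7 and from 21.9 to 53.3 FPKM. Hmgb2, a chromatin protein of dividing cells, rose from 8.85 to 24.6 FPKM (1.31, first of 201). The polysialic acid synthase St8sia2 fell from 27.5 to 11.9 FPKM and the actin regulator Wasf1 from 31.5 to 16.0, both last of 201.

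Genes of DNA replication and mitosis lay above genes of their length in nearly every case. Of 39 judged, 18 were called higher and 0 lower in the authors' deposited table, and 37 were above their length neighbours, with a median adjusted ratio of 0.38 in cortex and 0.00 in subcortex. Birc5, a protein of the mitotic spindle, rose from 6.27 to 12.1 FPKM (0.90), the kinase Cdk1 from 5.32 to 9.35 (0.80), the helicase Hells from 3.48 to 5.30 (0.69) and topoisomerase Top2a from 17.1 to 23.9 (0.63). The replication clamp Pcna rose from 56.5 to 82.1 FPKM. The proliferation marker Mki67, which has a long transcript, was not called at 11.3 and 12.0 FPKM, and still ranked 11th among 201 genes of its length. The 6 genes of the MCM helicase were all above their neighbours (0.06 to 0.38) and none was called. Ccnd2, at 47.2 and 37.2 FPKM, and Plk1, at 3.13 and 3.41, were the 2 members under their neighbours. Which cells divide cannot be read from bulk tissue, and phagocyte genes rose in the same libraries.

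**Figure D4:**
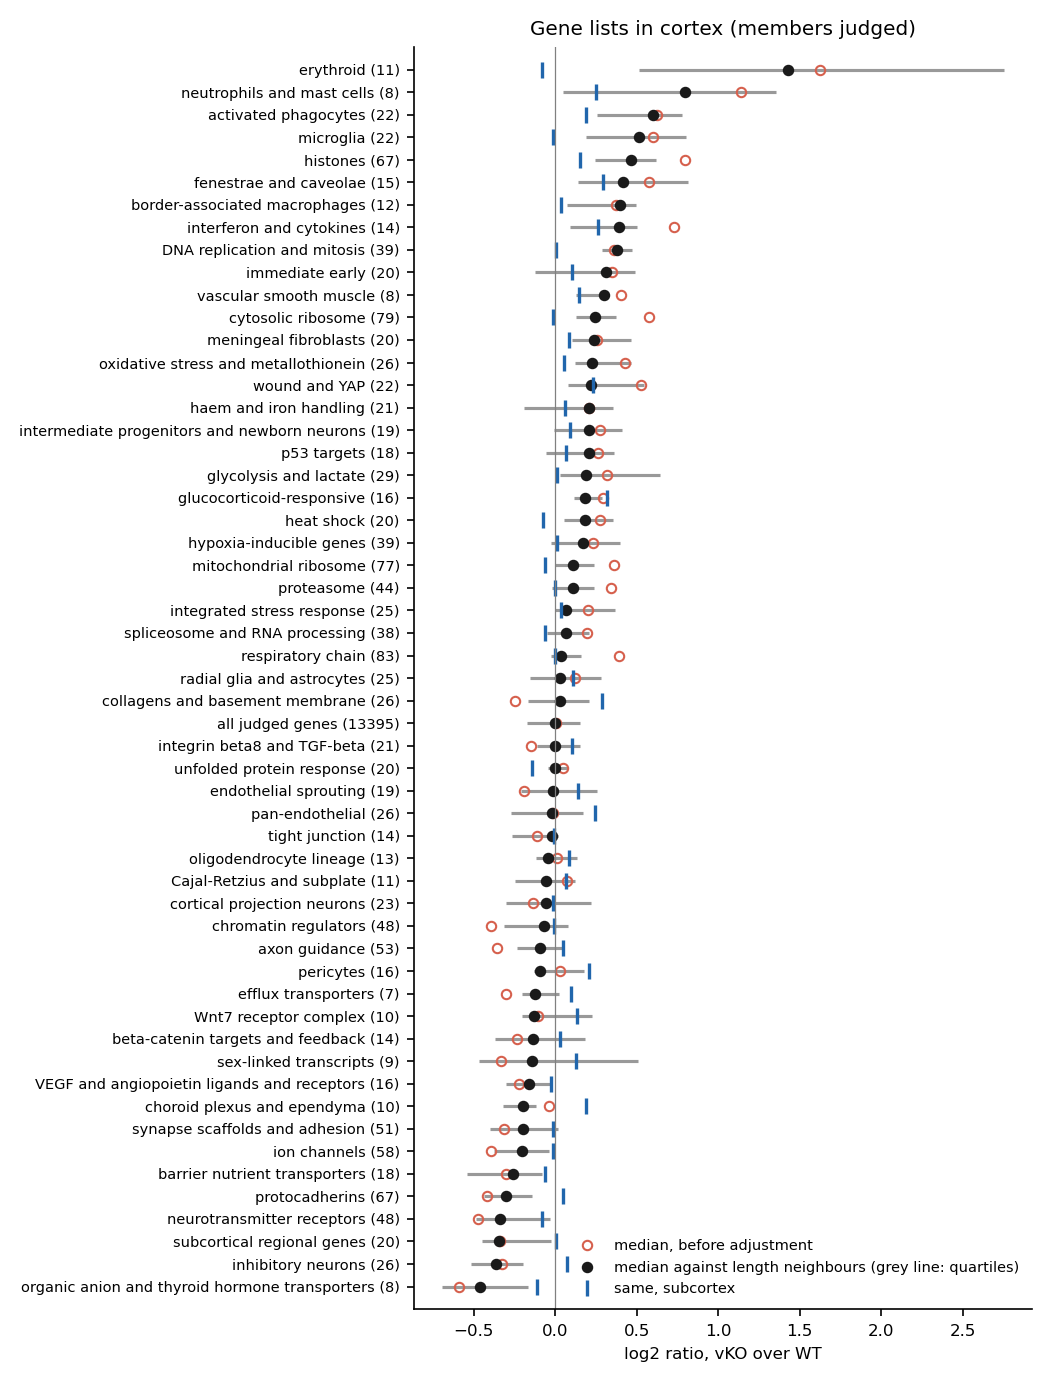
Median log2 ratio of vKO over WT cortex for each list with at least 5 judged genes (number in brackets), before adjustment (open), against length neighbours (filled, with a line from the lower to the upper quartile) and in subcortex (blue tick). The respiratory chain and ribosome lists move toward 0 once length is taken into account, and lists of ion channels and receptors stay below 0.

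Histone genes stood above genes of their length in 60 of 67 cases, and 55 were called higher. Hist1h2bc rose from 69.8 to 390 FPKM (2.14), Hist1h1d from 128 to 325 (1.61) and Hist1h2ac from 41.0 to 122 (1.46), each first of 201. The annotated transcripts of Hist1h1d (7425 bases) and Hist1h2ac (2482) are long beside the list median of 621. Their adjusted ratios and ranks depend on those lengths, and before adjustment their log2 ratios were 1.34 and 1.55. Of the 67 genes 46 lie on chromosome 13, where 6.1% of judged genes were at least 1.5-fold above their neighbours against 2.2% overall. Most histone transcripts of dividing cells lack a poly(A) tail, and libraries from total RNA can keep them.

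Housekeeping machines made of short transcripts looked raised before length was considered and much less so after it. For the 79 judged cytosolic ribosomal genes the median log2 ratio was 0.58 and the median adjusted ratio 0.24. By the authors' test 68 were called higher, and 75 lay above their neighbours. Fau rose from 291 to 665 FPKM (0.78) and Rps16 from 249 to 524 (0.73). For the mitochondrial ribosome the medians were 0.36 and 0.11 (22 of 77 called higher, 58 above), and for the proteasome 0.34 and 0.11 (18 of 44 called higher, 32 above). Respiratory chain genes went from 0.39 to 0.04, with 36 of 83 called higher and 52 above their neighbours. The median transcript was 906 bases for cytosolic ribosomal genes and 918 for respiratory genes. In the tenth of judged genes with the shortest transcripts 380 of 1340 were called higher. Matched in mean FPKM as well as length, 43.4% of respiratory genes lay above, which turns the direction, and 83.5% of cytosolic ribosomal genes did. Cytochrome c (Cycs), from 16.1 to 27.1 FPKM (0.68), was the respiratory member farthest above its neighbours. Of 38 splicing genes 7 were called higher and 3 lower. The 2 large matrix proteins Srrm2 (66.8 to 29.7 FPKM, last of 201) and Srrm1 (17.53 to 11.03) fell.

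Intermediate progenitor and newborn neuron genes lay mostly above their neighbours (14 of 19). In this list 6 were called higher and 2 lower. Neurod6 rose from 98.3 to 168 FPKM (0.62), Eomes (Tbr2), the defining factor of intermediate progenitors, from 5.48 to 8.18 (0.51), Neurog2 from 4.03 to 6.35 (0.43) and Neurod1 from 10.97 to 15.001 (0.36). The migration gene Dcx fell from 157 to 98.7 FPKM (-0.31). Of 25 radial glia and astrocyte genes 4 were called higher and 6 lower. Pax6 stood at 6.34 and 8.48 FPKM and Sox2 at 28.4 and 30.9, not called, while Sox9 fell from 7.26 to 4.62, Ptprz1 from 76.4 to 41.1 and the water channel gene Aqp4 from 6.16 to 4.205. Of 23 projection neuron genes 7 were called lower and 0 higher in the authors' deposited table, with a median adjusted ratio of -0.06. Bcl11b of subcerebral neurons fell, with an adjusted ratio of -0.32, and Cux1 of upper layers, at 41.7 and 49.9 FPKM, lay 0.80 above its neighbours without a call. Of 11 Cajal-Retzius and subplate genes Reln (50.5 to 26.4 FPKM) and Trp73 (1.99 to 1.18) were 2 of 3 called lower, and Ctgf, also on the wound list, was the 1 called higher.

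Genes of inhibitory neurons lay mostly below genes of their length, and under 50% of them were called. Of 26 judged genes 12 were called lower and 0 higher, and 25 lay below genes of their length, with a median adjusted ratio of -0.36 in cortex and 0.07 in subcortex. Lhx6, the factor of interneurons from the medial ganglionic eminence, fell from 17.5 to 10.3 FPKM (-0.69) and Npas1 from 6.06 to 3.31 (-0.88, last of 201). The enzymes that make GABA fell, Gad1 from 39.9 to 26.5 FPKM and Gad2 from 18.5 to 11.3, and so did the vesicular GABA transporter Slc32a1 (14.3 to 10.3). Prox1, of interneurons from the caudal eminence, fell from 5.13 to 2.38 FPKM. The progenitor factor Dlx1, at 26.8 and 24.0 FPKM, the peptide Sst, at 95.2 and 97.7, and Sp8, at 5.36 and 4.89, were not called.

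Genes that mark regions outside cortex lay mostly below their neighbours as well. Of 34 such genes 20 were judged in cortex, 17 of these lay below their length neighbours, and 7 were called lower and 0 higher in the authors' deposited table. Their summed level was 170 FPKM in WT and 141 in vKO. Tcf7l2, which is strong in thalamus, fell from 4.71 to 1.07 FPKM against 37.0 in WT subcortex, and the striatal peptide gene Penk from 11.7 to 7.86 (-0.74). Isl1 of striatal neurons, at 9.53 and 7.32 FPKM, the dopamine receptor Drd1a, at 7.21 and 5.52, and the glutamate transporter Slc17a6 of thalamus, at 15.8 and 16.3, were not called. The part of dissection borders in the lower inhibitory and regional genes was not tested. Of 10 choroid plexus genes 8 lay below their neighbours, 1 was called (Igfbp2, 91.1 to 127 FPKM), and Ttr stood at 504 and 485 FPKM. Of 13 oligodendrocyte lineage genes 2 were called lower and 0 higher.

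**Figure D5:**
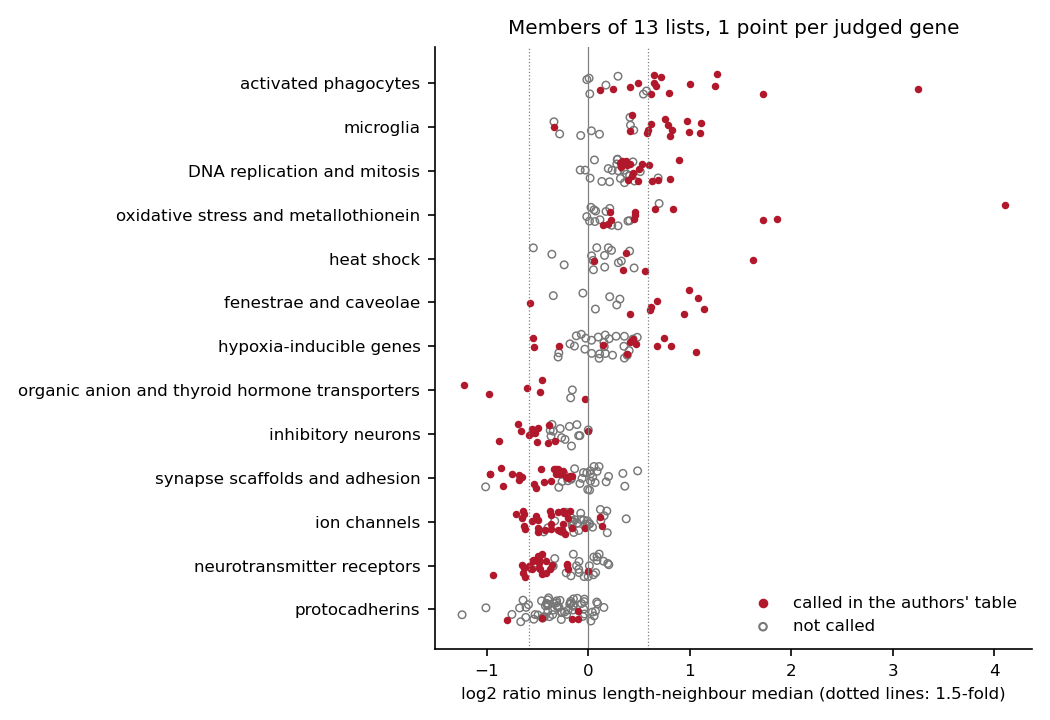
Length-adjusted log2 ratio in cortex (horizontal axis) of each judged member of 13 lists, with filled points for genes called in the authors' table and dotted lines at 1.5-fold. The phagocyte, microglial, replication and antioxidant lists lie mostly right of 0, and the inhibitory, synapse, channel, receptor and protocadherin lists mostly left of it. Vertical position within a row carries no meaning.

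Genes of neuronal excitability lay below other genes of their length. Of 58 judged ion channel genes 30 were called lower and 0 higher, and 47 lay below their length neighbours. The median log2 ratio was -0.40, and -0.21 once length was taken into account. The median transcript of this list was 5658.5 bases. In the tenth of judged genes from 5221 to 6853 bases 307 of 1339 were called lower. All 8 judged pore subunits of voltage-gated calcium channels (Cacna1 genes) were called lower and all 8 were below their neighbours, with a median adjusted ratio of -0.50. Cacna1a, of P/Q-type channels, fell from 10.6 to 5.63 FPKM, Cacna1b, of N-type channels, from 21.9 to 11.4, and Cacna1g, of T-type channels, from 13.4 to 6.46. The accessory subunit Cacna2d2 fell from 9.46 to 4.68 FPKM (-0.71). Of all 67 judged potassium channel (Kcn) genes 23 were called lower and 3 higher, 15 lay above their neighbours, and the median adjusted ratio was -0.18. All 4 judged fast potassium channel genes of the Kcnc family were called lower, among them Kcnc1, from 9.80 to 4.70 FPKM (-0.63). Of 9 sodium channel genes 5 were called lower and their median adjusted ratio was -0.16, with Scn1a going from 7.56 to 4.94 FPKM and Scn2a1, at 35.4 and 27.6, not called. None of the 4 Hcn pacemaker channel genes was called in the authors' deposited table.

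Transmitter receptors showed a like pattern. Of 48 judged 25 were called lower and 0 higher, 37 lay below their neighbours, and the median moved from -0.47 to -0.34 with length taken into account. The median transcript of this list was 4741 bases. In the tenth of judged genes from 4363 to 5221 bases 190 of 1340 were called lower. The kainate receptor subunit Grik5 fell from 37.1 to 18.5 FPKM (-0.94, last of 201) and Grik1 from 11.1 to 6.61 (-0.65). The obligate NMDA receptor subunit Grin1 fell from 20.0 to 12.2 FPKM (-0.59) and its fetal partner Grin2b from 50.6 to 24.1 (-0.48), while the later partner Grin2a, at 3.05 and 2.16, was not called. The AMPA receptor gene Gria1 fell from 50.3 to 31.2 FPKM and Gria2, at 155 and 135, was not called. All 7 judged metabotropic glutamate receptor genes were below their neighbours and 6 were called lower. GABA-A receptor genes differed from these in count, with 3 of 12 called lower and a median adjusted ratio of -0.05. Gabra2 fell from 25.5 to 13.7 FPKM (-0.64) and Gabra5, at 26.6 and 29.5, was not called.

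At the synapse 23 of 51 judged genes were called lower and 0 higher, and 37 lay below genes of their length. The median transcript of this list was 5020 bases. In the tenth of judged genes from 4363 to 5221 bases 190 of 1340 were called lower. The presynaptic adhesion gene Nrxn3 fell from 36.5 to 14.5 FPKM (-0.97, last of 201). A neurexin partner at inhibitory synapses, Nlgn2, fell from 31.8 to 17.3 FPKM (-0.66), and Nlgn1, at excitatory synapses, stood at 26.1 and 23.8 without a call. Postsynaptic Shank1 fell from 21.02 to 7.96 FPKM (-0.96). The vesicle proteins Vamp2 and Syn3 fell from 47.5 to 30.5 and from 16.9 to 8.45 FPKM. Syn1, at 22.2 and 10.6 FPKM, was last of 201 (-1.01) but its q-value in the authors' deposited table was 0.0703. Snap25, at 74.5 and 68.8 FPKM, was not called.

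Clustered protocadherins, adhesion proteins that give each neuron its own surface code, lay below their neighbours in 53 of 55 cases, with a median adjusted ratio of -0.34, yet 0 of 55 were called by the authors' test. Members of a cluster share their last exons and overlap on the genome, so their values are not independent and their split is uncertain. Of 12 other protocadherins 5 were called lower, among them Pcdh1 (17.1 to 8.02 FPKM, -0.80) and Pcdh19 (16.1 to 8.73, -0.45). Of 53 axon guidance genes 25 were called lower and 1 higher, but the median adjusted ratio was -0.09, beside -0.36 before length was taken into account. Their median transcript was 5874 bases. In the tenth of judged genes from 5221 to 6853 bases 307 of 1339 were called lower. All 8 plexin receptor genes were called lower, Plxna1 from 38.8 to 19.5 FPKM and Plxna3 from 28.4 to 14.6. Of the 8 plexin genes 7 lay below and 1 above genes of their length, with a median adjusted ratio of -0.23. The ephrin Efna5 fell from 4.36 to 1.98 FPKM (-0.78) and Sema3c rose from 19.3 to 26.8 (0.66). Chromatin regulators behaved likewise, with 25 of 48 called lower, 0 higher and medians of -0.40 before and -0.07 after adjustment. Their median transcript was 8488 bases. In the tenth of judged genes with the longest transcripts 625 of 1340 were called lower. The 5 Kmt2 histone methyltransferase genes were each called lower with a median adjusted ratio of -0.50, and the demethylase Kdm6b (11.5 to 4.67 FPKM, -0.91) and the remodeller Arid1a (25.2 to 10.8, -0.85) lay farthest below. Dnmt1, at 33.7 and 30.4 FPKM, and Ezh2, at 30.9 and 33.8, were not called.

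Matching neighbours in GC content as well as length left these shares close. The share of members above their neighbours went from 19.0% to 17.2% for ion channels, from 22.9% to 14.6% for receptors, from 27.5% to 31.4% for synapse genes and from 3.85% to 3.85% for inhibitory neuron genes. Matching in mean FPKM gave 15.5%, 14.6%, 21.6% and 7.69%.

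Subcortex of the same genotypes was set beside cortex gene by gene, with no test of the difference between tissues, since values per library were not used. There 166 genes (1.23% of 13543) lay at least 1.5-fold above their length neighbours and 118 (0.871%) below. Of the cortex genes past 1.5-fold that were also judged in subcortex, 34 of 240 above and 31 of 471 below were past 1.5-fold in the same direction there, and 30 were past it in opposite directions. The genes above in both tissues included Hmox1 (3.32 to 14.5 FPKM in subcortex), Lyz2 (4.86 to 10.1), Mt1 (57.5 to 128) and Mt2 (13.2 to 41.3), and Txnip, Emp1, Apod and the growth factor Mdk. Those below in both included Slc38a5 (4.21 to 1.94), Slco1c1 (10.7 to 1.82), Slc22a8 (2.97 to 1.09) and Notum (1.32 to 0.202). In contrast, Bnip3, at 33.7 and 34.1 FPKM, Slc16a3, at 2.501 and 2.416, and Tyrobp, at 16.3 and 17.1, moved little in subcortex and were not called there. The median adjusted ratio of the microglial list was -0.02 there, beside 0.51 in cortex. Cldn5 stood at 42.1 and 37.6 FPKM in subcortex.

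Genes around Reck were no more often past 1.5-fold than genes elsewhere. Within 5 Mb on either side, 96 genes were judged, of which 0 lay at least 1.5-fold above and 1 at least 1.5-fold below their neighbours (1.04%, against 6.49% of all judged genes). In this window 9 genes were called higher and 8 lower in the authors' deposited table, together 17.7% of the 96. Over all judged genes 8.17% were called higher and 11.3% lower. Sex-linked transcripts differed between the groups. Xist, the RNA of the inactive X chromosome, went from 0.0417 to 18.6 FPKM in cortex and from 0.0369 to 10.2 in subcortex. The Y-linked Eif2s3y fell from 30.4 to 15.8 FPKM, and Uty and Kdm5d fell from 9.32 to 5.66 and from 11.2 to 6.07. The labels give no sex, and the effect of genotype and of the sexes in each group cannot be told apart for sex-linked genes, while for other genes the part of sex was not tested.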

How the data were processed

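Total RNA was sequenced from 3 WT and 3 vKO cortex and 3 WT and 3 vKO subcortex libraries. Per the submitters' processing notes, HISAT2 2.0.1, Cufflinks 2.2.1 and Cuffdiff were used with the mm10 build, and these sources do not name the gene annotation. Per the file headers, the authors deposited 1 FPKM for each gene in each group. The p-values and q-values are the authors' own from the deposited table, and no test was run on the FPKM. Depth per library is unknown.

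Transcript lengths came from GENCODE M21 (GRCm38), by symbol for 12881 genes and by an older symbol for 514. Another 153 genes without a length were left out. Log2 ratios used a pseudocount of 1 FPKM, and each was set against the median of 200 genes of nearest length. On simulated data the script recovered 187 of 200 planted genes. This recovery does not tell how many real genes pass 1.5-fold by noise alone. Copies were found with BLAST+ 2.17.0. Python 3.11.15, numpy 2.4.6, scipy 1.17.1, pandas 2.3.3 and matplotlib 3.10.9 were used.

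The genes and lists were chosen with earlier results of these data known. Named genes were those of the Reck receptor complex, the 15 farthest above and below and up to 4 per list with the largest adjusted ratios. Other genes were chosen after their values were seen, to show members of a list that did and did not pass the authors' test. Some genes are not reported here.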

Additional observations from a re-analysis of the deposited data

How the results depend on the processing

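No paired analysis was possible because the table holds 1 value per group, and for the same reason no library could be left out and no other count test run. Of 222 named genes 141 lay past 1.5-fold, 72 of these under every alternative of the 12 that gave them a value, 69 fell short in at least 1 and 0 reversed. With q under 0.01 the authors' deposited table called 538 judged genes higher and 977 lower, in place of 1094 and 1516. The number of genes at least 1.5-fold above, 295, became 446 with locus span for length, 468 with the shortest protein-coding transcript, 546 without length adjustment, 479 with a pseudocount of 0.1 and 141 with 5. The number below, 574, became 316 with a minimum of 5 FPKM, 868 with a pseudocount of 0.1 and 168 with 5. The share of respiratory chain genes above their neighbours fell from 62.65% to 43.37% with neighbours matched in mean FPKM and length, a reversal. Of 55 lists 21 had a share above neighbours that moved in at least 1 alternative, 13 of them without length adjustment, 10 with the shortest transcript and 7 with locus span. Matching in mean FPKM also took the share across 50% for pericytes (43.75% to 62.5%), oligodendrocyte lineage (30.77% to 53.85%), radial glia and astrocytes (56.0% to 48.0%) and TGF-beta genes (47.62% to 52.38%), and matching in GC did so for endothelial sprouting (36.84% to 63.16%) and TGF-beta genes (57.14%). The cause of these shifts was not tested, other than that a larger pseudocount shrinks low genes by construction. Neighbours matched in length and GC, and genes that code for protein alone, were added after seeing the data. They gave 272 above and 556 below, and 245 and 385.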
